A study of Homo sapiens with 6 samples.

Results

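The 33 genes described here carry antigen presentation by the major histocompatibility complex (MHC), and they were chosen by symbol from the 20289 genes of the deposited expression table. They comprise 12 class I genes (5 heavy chains, the light chain B2M and 6 genes of peptide supply and loading), 4 class I-like genes, 12 class II genes (7 chains and 5 genes of peptide exchange and chaperoning) and 5 transcriptional regulators. All 33 symbols were found in the table. RNA sequencing covered 6 libraries labelled as T24, an established human bladder cancer cell line, and the stated purpose was to compare expression under LINC00665, a long non-coding RNA studied in lymph node metastasis, with a control. In the LINC00665 group (n = 3) the cells received a pcDNA3.1 plasmid with the LINC00665 gene by lipofection, for overexpression. In the Vector group (n = 3) the control cells received the vector plasmid, and cells of both groups were grown in the same serum-containing RPMI medium. The labels name 3 independent experiments, and p-values measure the spread between these libraries.

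Class I molecules show peptides from inside the cell to cytotoxic T cells. Their heavy chains fold around B2M in the endoplasmic reticulum, where the TAP transporter delivers peptides, ERAP1 and ERAP2 trim them and tapasin (TAPBP) edits the load. Class II molecules show peptides from endosomes to helper T cells and are normally made by professional antigen-presenting cells, while many epithelial cells start to make them under interferon gamma. The invariant chain CD74 occupies the class II groove until HLA-DM exchanges it for a peptide. Promoters of both classes share an enhancer made of X and Y boxes, bound by the RFX complex and the CCAAT factor NF-Y, to which NLRC5 (class I) or CIITA (class II) is recruited. Class I promoters often also hold an interferon-stimulated response element (ISRE), bound by interferon regulatory factors.

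The promoters of 6 of these genes are shown because their transcripts behaved differently: HLA-B and B2M were higher in LINC00665 libraries, TAPBP was lower, CD74 and HLA-DMA were the class II genes called higher, and HLA-DRB1 was almost undetected. Each sequence is the 250 bases before the RefSeq start of the gene (GRCh38.p14), written 5′ to 3′ on the gene's strand. Capitals mark matches, on either strand, to the Y box CTGATTGG, to its inner CCAAT core ATTGG, to an X1 box core AGNAACNGA or to an ISRE, taken as 2 copies of TTTC set 2 bases apart. The printed strand can hold the reverse complement of each.
HLA-B, chr6:31357180-31357429, minus strand: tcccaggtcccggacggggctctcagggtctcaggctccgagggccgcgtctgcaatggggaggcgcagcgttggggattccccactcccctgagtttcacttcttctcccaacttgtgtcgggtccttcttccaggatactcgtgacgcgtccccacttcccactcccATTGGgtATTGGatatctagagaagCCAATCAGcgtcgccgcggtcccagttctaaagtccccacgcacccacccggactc
B2M, chr15:44711267-44711516, plus strand: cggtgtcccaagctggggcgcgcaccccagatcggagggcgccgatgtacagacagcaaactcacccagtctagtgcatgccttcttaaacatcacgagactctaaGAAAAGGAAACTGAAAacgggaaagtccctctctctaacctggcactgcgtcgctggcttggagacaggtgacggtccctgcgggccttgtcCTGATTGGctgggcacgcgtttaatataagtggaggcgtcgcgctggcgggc
TAPBP, chr6:33314079-33314328, minus strand: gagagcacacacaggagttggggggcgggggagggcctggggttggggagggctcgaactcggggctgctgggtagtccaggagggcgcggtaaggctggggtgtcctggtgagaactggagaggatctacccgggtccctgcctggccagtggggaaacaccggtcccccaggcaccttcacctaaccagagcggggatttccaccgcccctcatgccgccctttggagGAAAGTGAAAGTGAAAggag
CD74, chr5:150412911-150413160, minus strand: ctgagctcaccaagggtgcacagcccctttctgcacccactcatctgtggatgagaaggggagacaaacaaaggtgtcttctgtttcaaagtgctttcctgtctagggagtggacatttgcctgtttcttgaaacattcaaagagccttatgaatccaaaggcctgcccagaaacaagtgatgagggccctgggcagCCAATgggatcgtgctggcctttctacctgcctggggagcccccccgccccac
HLA-DMA, chr6:32953098-32953347, minus strand: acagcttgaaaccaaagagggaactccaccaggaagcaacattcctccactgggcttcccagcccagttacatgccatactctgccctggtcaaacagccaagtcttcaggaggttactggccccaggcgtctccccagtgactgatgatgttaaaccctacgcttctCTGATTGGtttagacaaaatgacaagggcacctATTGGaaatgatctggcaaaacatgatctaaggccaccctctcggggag
HLA-DRB1, chr6:32589849-32590098, minus strand: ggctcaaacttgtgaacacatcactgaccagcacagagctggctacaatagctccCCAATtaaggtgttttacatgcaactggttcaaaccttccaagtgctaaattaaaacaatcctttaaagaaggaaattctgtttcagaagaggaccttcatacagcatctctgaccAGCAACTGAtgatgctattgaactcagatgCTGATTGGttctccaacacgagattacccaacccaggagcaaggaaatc

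RefSeq windows were found for 29 of the 33 genes, all but HLA-E, HLA-DRA, NLRC5 and CIITA. The motif letters were chosen with these windows in view. The Y box stood in 5 of 11 class I windows (HLA-B, HLA-C, HLA-F, HLA-G and B2M) and in 4 of 11 class II windows (HLA-DMA, HLA-DQB1, HLA-DRB1 and HLA-DRB5), against 3.81% of 35116 windows of all genes. The shorter core ATTGG, which every Y box contains, stood in 7 of 11 class I and 10 of 11 class II windows, against 32% of all windows. The X1 core stood in 6 of 11 class II windows and 1 of 11 class I windows, against 3.61% of all windows. The ISRE stood in 6 of 11 class I windows (HLA-F, B2M, TAP1, TAP2, TAPBP and ERAP2) and in 0 of 11 class II windows, against 3.02% of all windows. An X2 core TGACG, not set in capitals, stood in 4 of 11 windows of either class, against 21.2% of all windows. Only exact matches were counted, so a window without one can hold a near match, as HLA-B does for the ISRE (tttcacttct). These matches describe letters in the window and show no binding.

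The libraries held 17289788 to 22725687 expected counts each, and the biological coefficient of variation was 12.8% in LINC00665 libraries and 28.6% in Vector libraries. A check of library identity found 3 of the 6 at odds with the labelled cell line, and no comparison is possible without them because none would be left between the labels. Groups are therefore named by label throughout, and the level of LINC00665 itself was not analysed here. A list of 16 urothelial and epithelial markers summed to 9772 to 10842 CPM (counts scaled to the library's total expected count) in LINC00665 libraries and to 1084 to 3397 CPM in Vector libraries, where UPK3A and GRHL2 were at 0. Most of the Vector sum was KRT8, at 886 ± 459 CPM, and KRT18, at 1061 ± 786 CPM (SD, n = 3). In LINC00665 libraries these 2 had 1531 ± 138 and 1787 ± 151 CPM. KRT19 had 2652 ± 293 CPM in LINC00665 libraries and 1.15 ± 0.341 CPM in Vector libraries, and CDH1 had 251 ± 15.0 and 0.397 ± 0.212 CPM. No tested marker of this list was lower in LINC00665 libraries. A list of 10 kidney tubule markers summed to 30.6 to 33.8 CPM in LINC00665 libraries and to 403 to 567 CPM in Vector libraries, with SLC12A1, UMOD and AQP2 at 0 in both groups and CDH16 also at 0 in LINC00665 libraries. Of 15 tested epithelial markers 8 passed the filter on low counts only through the LINC00665 libraries, where they were high. Of the other 7, which passed in each group alone, 6 were higher in LINC00665 libraries and 1 was not called. Of 6 tested kidney markers 5 were lower in LINC00665 libraries and 1, LHX1, was higher. LHX1 averaged 17.5 CPM in LINC00665 libraries, a large part of the list's sum there, and 0.354 CPM in Vector libraries. Only 1 kidney marker passed in each group alone, and it was lower in LINC00665 libraries. The sums of both lists thus differed between the same 2 groups that are compared below. Their part in the differences between these groups was not tested.

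Of 11 tested class I genes 7 were higher and 1 was lower in LINC00665 libraries, and the 2 class II genes tested, CD74 and HLA-DMA, were called higher but reached the test only through the LINC00665 libraries. Of all 33 genes, 22 passed the filter on low counts and were tested. With edgeR's quasi-likelihood test and Benjamini-Hochberg adjustment over all 13552 genes tested (threshold 0.05), 12 were higher in LINC00665 libraries, 1 was lower and 9 were not called. Over all genes tested 63.5% were called, 34.2% as higher and 29.3% as lower, so a call in itself was common in this comparison. In CPM, all 3 LINC00665 libraries lay above all 3 Vector libraries for 33.8% of genes tested and below them for 37.6%. Groups without overlap were therefore common too. CD1D, CD74 and HLA-DMA passed the filter only through the LINC00665 libraries, so they had to be higher to be tested. Of the 19 genes that passed in each group alone, 9 were higher and 1 was lower, against 26.9% higher and 31.9% lower of the 11398 such genes, with a median log2 difference of 0.44 over the 19 and -0.09 over all such genes. All log2 differences below are from this fit, LINC00665 over Vector, with the standard error in parentheses. They lie slightly above the ratio of the CPM values, because the trimmed-mean scaling put the median of all genes at 0.03 where scaling by total counts puts it at -0.13.

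**Figure D1:**
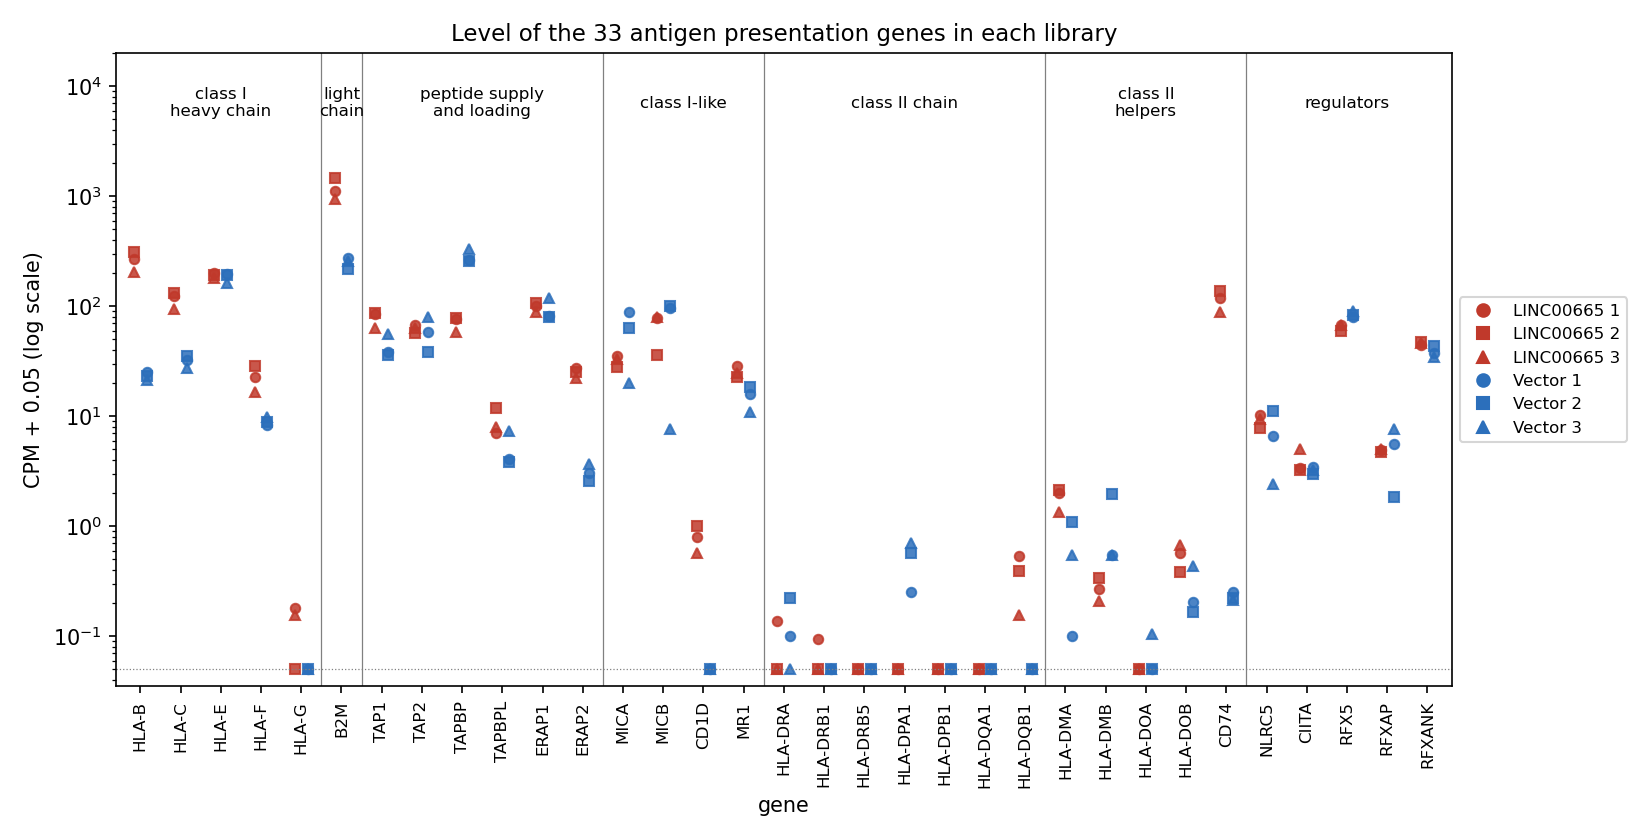
Level of each of the 33 genes in each library, in CPM plus 0.05 on a log scale, with LINC00665 libraries in red and Vector libraries in blue; symbols give the replicate number and the dotted line marks 0 counts. The class II chains lie at or near the dotted line in all 6 libraries, CD74 lies between 88.2 and 138 CPM in LINC00665 libraries and below 1 CPM in Vector libraries, and HLA-E overlaps.

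Of the 5 class I heavy chains 3 were higher, 1 was not called and 1 was not tested. HLA-B, a classical heavy chain (chr6:31269491-31357188 in GENCODE v29, GRCh38, minus strand), had 266, 314 and 203 CPM in LINC00665 libraries, against 25.1, 23.3 and 21.5 CPM in Vector libraries. Every LINC00665 library lay far above every Vector library, and the log2 difference was 3.65 (0.21), with an adjusted p of 2.91e-06 from edgeR. HLA-C, the classical heavy chain that is a main ligand of killer-cell immunoglobulin-like receptors, had 123, 133 and 95.1 CPM in LINC00665 libraries, against 32.2, 35.3 and 27.6 CPM in Vector libraries. Its groups did not overlap either, at a log2 difference of 2.05 (0.19) and an edgeR adjusted p of 3.98e-05. GENCODE v29 lists overlapping gene spans for HLA-B and HLA-C, and both have fractional expected counts in all 6 libraries, so some reads were shared out between genes and single values of near-identical heavy chains are uncertain to that extent.

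The others are non-classical heavy chains. HLA-E, which presents leader peptides of other class I chains to the NKG2A receptor, had 199, 192 and 179 CPM in LINC00665 libraries, against 198, 193 and 161 CPM in Vector libraries. These ranges overlapped, and the log2 difference of 0.21 (0.14) was not called (edgeR adjusted p = 0.229). HLA-F, a non-classical chain that can reach the surface without peptide, had 22.5, 28.8 and 16.7 CPM in LINC00665 libraries, against 8.24, 8.85 and 9.70 CPM in Vector libraries. It was higher by 1.51 (0.24) on the log2 scale (edgeR adjusted p = 0.000727), with no overlap. HLA-G, the chain of the placental trophoblast, had 3, 0 and 2 counts in LINC00665 libraries and 0 in each Vector library, and was not tested. Here 3 counts over the libraries of a group, which is 0.0479 CPM for LINC00665 and 0.0540 CPM for Vector, set the limit of what a count of 0 allows. Such limits and all count intervals below cover counting error only.

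B2M, the light chain that all these heavy chains need (chr15:44711487-44718877, plus strand), had 1111, 1448 and 940 CPM in LINC00665 libraries, against 272, 218 and 258 CPM in Vector libraries. Its groups were well apart, and it was higher by 2.40 (0.21) on the log2 scale, with an edgeR adjusted p of 2.36e-05. Per length, on the deposited FPKM scale (fragments scaled for gene length and library size), B2M had the highest level of the 33 genes in both groups, with 1292 ± 293 FPKM in LINC00665 libraries and 282 ± 29.7 FPKM in Vector libraries (SD, n = 3 each).

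Among the genes of peptide supply and loading, 3 were higher, 1 was lower and 2 were not called. TAP1, a subunit of the peptide transporter, had 84.1, 87.3 and 63.6 CPM in LINC00665 libraries, against 38.4, 35.7 and 55.4 CPM in Vector libraries. The groups did not overlap, although the third library of each group lay close to the other's, and the log2 difference was 1.03 (0.22; edgeR adjusted p = 0.00359). Its partner subunit TAP2 had 67.1, 56.7 and 63.2 CPM in LINC00665 libraries, against 58.0, 37.9 and 79.2 CPM in Vector libraries. The Vector values enclosed the LINC00665 values, and the difference of 0.26 (0.25) was not called (edgeR adjusted p = 0.383). Without the third Vector library the TAP2 difference was 0.54 with an edgeR adjusted p of 0.0356, and over all alternatives that p ran from 0.0356 to 0.895.

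Tapasin was the single class I gene called lower. TAPBP (chr6:33299694-33314387, minus strand), which bridges TAP and empty class I molecules, had 76.3, 78.2 and 58.7 CPM in LINC00665 libraries, against 263, 258 and 328 CPM in Vector libraries. Every LINC00665 library lay below every Vector library, and the log2 difference was -1.83 (0.18), with an edgeR adjusted p of 5.79e-05. Its relative TAPBPL, a peptide editor that works outside the TAP complex, had 7.04, 11.9 and 8.01 CPM in LINC00665 libraries, against 4.05, 3.82 and 7.24 CPM in Vector libraries. The lowest LINC00665 value lay just under the highest Vector value, and the log2 difference of 1.00 (0.33) was called (edgeR adjusted p = 0.0263). That call was lost without the second LINC00665 library, at 0.70, and without the first or the second Vector library, at 0.85 and 0.84, and the adjusted p ran from 0.00389 to 0.117 over the alternatives.

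Of the peptide-trimming aminopeptidases, ERAP2 was higher and ERAP1 was not called. ERAP2 had 27.5, 25.3 and 22.1 CPM in LINC00665 libraries, against 2.996, 2.55 and 3.62 CPM in Vector libraries. The groups were widely apart, with a log2 difference of 3.19 (0.21) and an edgeR adjusted p of 5.09e-06. ERAP1, its neighbour on chromosome 5, had 101, 106 and 88.1 CPM in LINC00665 libraries, against 80.8, 80.4 and 119 CPM in Vector libraries. Its groups overlapped, and the difference of 0.25 (0.19) was not called (edgeR adjusted p = 0.296). Leaving out the third Vector library, which held the highest value, gave 0.45 with an edgeR adjusted p of 0.0291, and that p ran from 0.0291 to 0.824 over the alternatives. ERAP1 overlaps CAST on the other strand and TAP1 overlaps PSMB9, and without knowing whether the counting used strand, reads of such partners cannot be told apart.

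**Figure D2:**
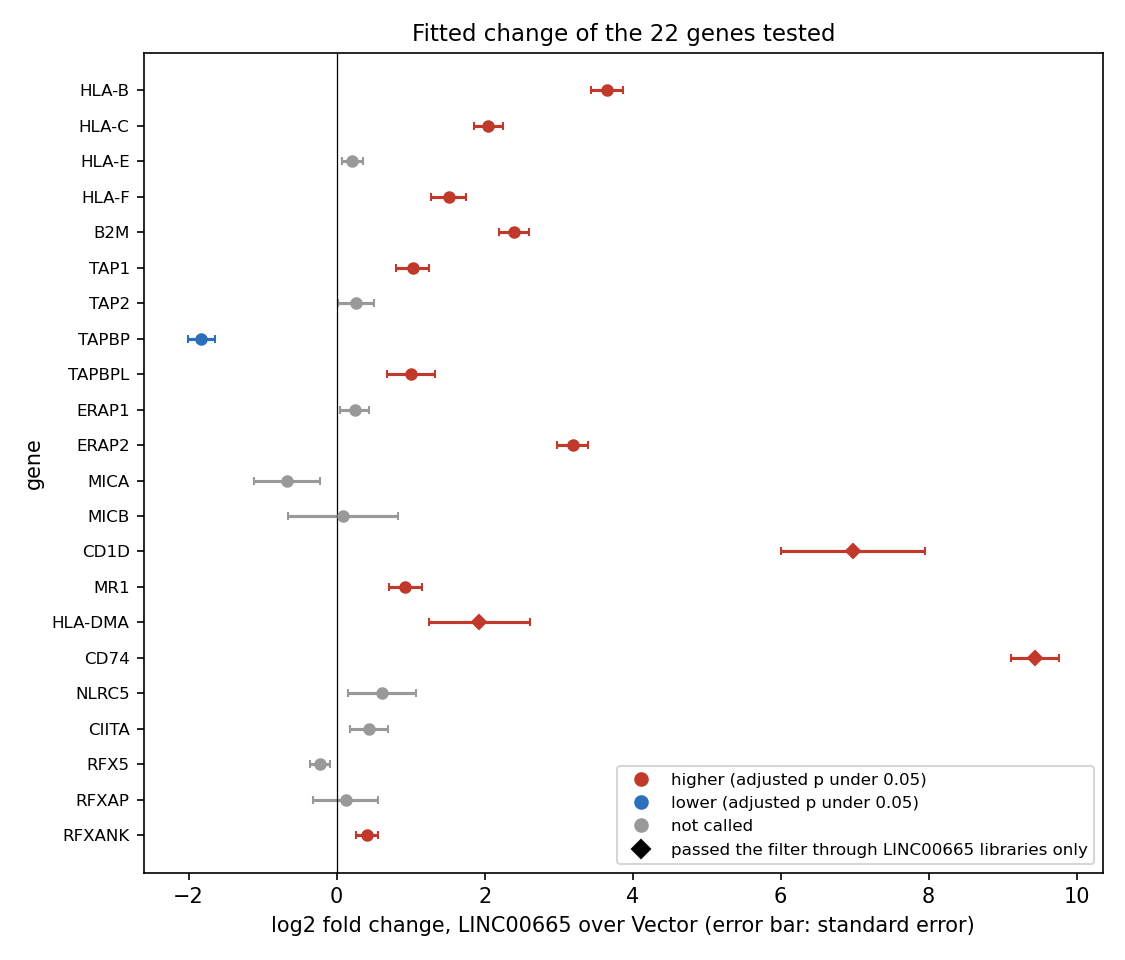
Fitted log2 difference, LINC00665 over Vector, of the 22 genes tested, with bars of 1 standard error; red is higher, blue lower, grey not called (edgeR, adjusted p under 0.05), and diamonds passed the filter only through the LINC00665 libraries. TAPBP at -1.83 is the single blue point, and the CD1D point depends on the prior count because its Vector counts were 0.

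The proportions among class I genes can be read from FPKM ratios within each library. Per length, HLA-B was the second highest of the 33 genes in LINC00665 libraries, at 170 ± 36.3 FPKM, and number 11 in Vector libraries, at 15.2 ± 1.18 FPKM (SD, n = 3 each). TAPBP was number 9 in LINC00665 libraries, at 23.02 ± 2.82 FPKM, and number 2 in Vector libraries, at 109 ± 15.5 FPKM. HLA-B over HLA-C was 2.01, 2.22 and 1.94 in LINC00665 libraries, against 0.781, 0.659 and 0.779 in Vector libraries. HLA-B exceeded HLA-C in every LINC00665 library and lay below it in every Vector library. HLA-B over HLA-E was 2.22, 2.71 and 1.88 in LINC00665 libraries, against 0.211, 0.200 and 0.221 in Vector libraries, so the order of this pair was also turned. B2M over the 5 summed heavy chains was 3.44, 4.09 and 3.66 in LINC00665 libraries, against 2.48, 2.04 and 2.89 in Vector libraries. TAPBP over TAP1 was 0.776, 0.734 and 0.814 in LINC00665 libraries, against 6.66, 7.37 and 5.91 in Vector libraries. Tapasin thus stood below TAP1 under the LINC00665 label and several-fold above it under the Vector label. ERAP2 over ERAP1 was 0.258, 0.240 and 0.248 in LINC00665 libraries, against 0.0545, 0.0255 and 0.0252 in Vector libraries. For these 5 ratios the groups did not overlap, which was common among single genes and was not counted for other pairs. Each ratio had p = 0.1 in a two-sided exact permutation test, the smallest p that 3 against 3 libraries can give. Adjusted over 7 ratios, this permutation p was 0.14. TAP1 over TAP2 averaged 2.05 ± 0.414 in LINC00665 libraries and 1.51 ± 0.207 in Vector libraries (SD, n = 3 each), with overlapping groups (exact permutation p = 0.2, adjusted p = 0.2).

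**Figure D3:**
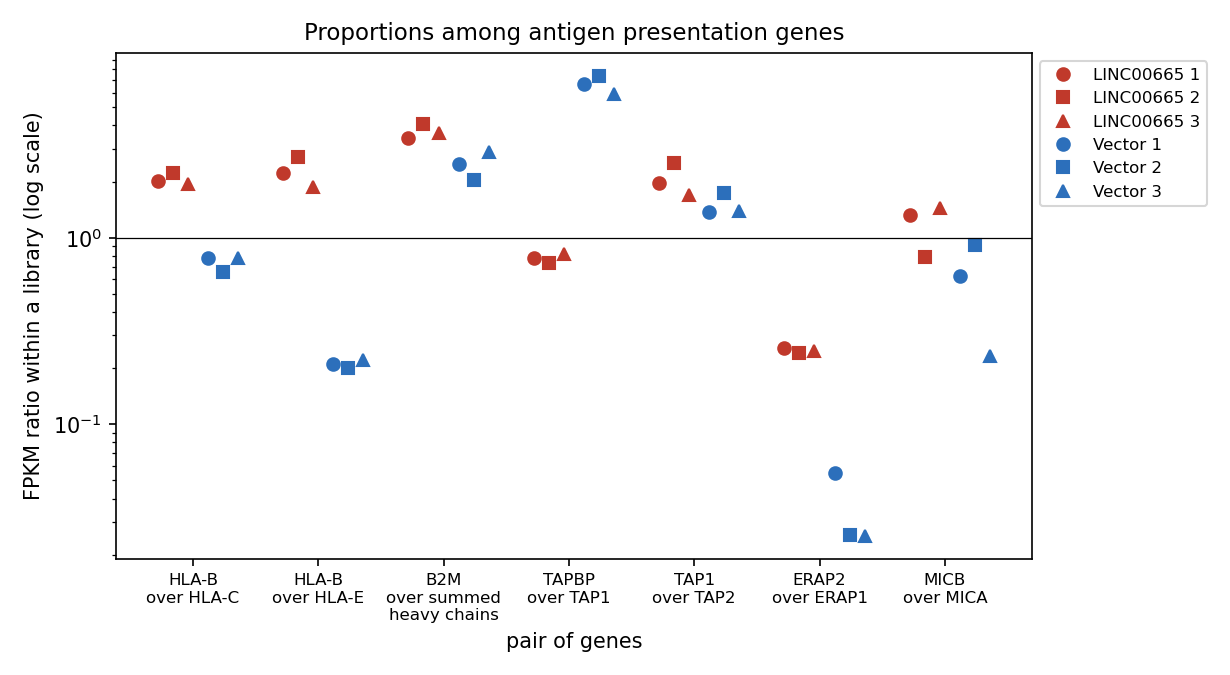
Ratio of FPKM values within each library for 7 pairs of genes, on a log scale with a line at a ratio of 1; LINC00665 libraries are red and stand left of the blue Vector libraries. HLA-B over HLA-C and HLA-B over HLA-E lie above the line in LINC00665 libraries and below it in Vector libraries, and TAPBP over TAP1 does the reverse.

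Of the 4 class I-like genes, 2 were higher and 2 were not called. MR1, which shows vitamin B metabolites to mucosal-associated invariant T cells, had 28.8, 22.9 and 24.7 CPM in LINC00665 libraries, against 15.8, 18.2 and 10.9 CPM in Vector libraries. The groups did not overlap, and the log2 difference was 0.93 (0.22; edgeR adjusted p = 0.00597). On the deposited FPKM values the MR1 groups overlapped, and limma-trend on log2(FPKM + 1) gave 0.31 with the call lost (adjusted p up to 0.244 over the alternatives, from 0.000318). CD1D, which shows lipids to natural killer T cells, had 17, 20 and 10 counts in LINC00665 libraries and 0 in each Vector library. It was at least 13.9-fold higher against 3 counts over the Vector group, and edgeR's adjusted p was 0.00105.

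MICA and MICB are stress-induced ligands of the NKG2D receptor, and for both the Vector libraries disagreed among themselves. MICA had 35.2, 27.7 and 33.1 CPM in LINC00665 libraries, against 87.7, 63.4 and 19.8 CPM in Vector libraries. MICB had 77.8, 36.3 and 80.5 CPM in LINC00665 libraries, against 95.4, 101 and 7.68 CPM in Vector libraries. For both genes the third Vector library was the lowest of all 6 libraries. Neither difference was called, at -0.67 (0.44) for MICA with an edgeR adjusted p of 0.214 and at 0.08 (0.74) for MICB with an edgeR adjusted p of 0.929. Without the third Vector library MICA was called lower, at -1.08 with an edgeR adjusted p of 0.000815, and over all alternatives that p ran from 0.000815 to 0.669. The ratio of the highest to the lowest Vector library was 13.2 for MICB, a spread reached by 0.0543% of the 9210 genes with a mean of at least 10 CPM in that group, and 4.42 for MICA, reached by 1.47%, against a median of 1.39. In LINC00665 libraries the same ratio was 2.22 for MICB, reached by 0.290% of 9649 genes, where the second library was low. As bulk RNA was measured, fewer cells making a transcript and less of it per cell cannot be told apart.

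Of the class II genes, CD74 stood apart. CD74 (chr5:150401637-150412929, minus strand) had 119, 138 and 88.2 CPM in LINC00665 libraries, against 0.200, 0.174 and 0.164 CPM in Vector libraries, where it had 4, 3 and 3 counts. The summed counts, scaled for depth, differed by 644-fold (95% interval 350 to 1343, exact binomial), and the log2 difference was 9.44 (0.32), with an edgeR adjusted p of 2.44e-07. Per length CD74 was the third highest of the 33 genes in LINC00665 libraries, at 90.3 ± 20.2 FPKM, above HLA-C at 82.1 ± 12.4 FPKM (SD, n = 3 each), and these levels lay within the spread of each other.

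The class II chains, the molecules that CD74 escorts, were at or near 0 in all libraries. HLA-DRB5, HLA-DPB1 and HLA-DQA1 had 0 counts in each of the 6 libraries. HLA-DRA, the nearly monomorphic alpha chain of HLA-DR, had 2, 0 and 0 counts in LINC00665 libraries, against 1, 3 and 0 counts in Vector libraries, and HLA-DRB1 had 1 count in 1 LINC00665 library. The chains with a few counts went opposite ways. HLA-DQB1 had 11, 7 and 2 counts in LINC00665 libraries and 0 in each Vector library, which is at least 5.92-fold higher. HLA-DPA1 had 0 counts in each LINC00665 library, against 4, 9 and 12 counts in Vector libraries, which is at least 9.39-fold lower. None of the 7 chains passed the filter on low counts, so the count of class II genes called higher says nothing of them. With no filter edgeR gave adjusted p = 0.0124 for HLA-DQB1 and adjusted p = 0.00640 for HLA-DPA1, which was also called without the third LINC00665 library. All 7 chains together had 23 counts over the LINC00665 libraries and 29 counts over the Vector libraries.

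The peptide-exchange genes were low as well. HLA-DMA, the alpha chain of the HLA-DM exchange factor, had 44, 43 and 25 counts in LINC00665 libraries, against 1, 18 and 9 counts in Vector libraries. The groups did not overlap, the depth-scaled count ratio was 3.55 (95% interval 2.33 to 5.58), and the log2 difference was 1.93 (0.69) with an edgeR adjusted p of 0.0370. Leaving out any 1 LINC00665 library, or the third Vector library, ended this call, at log2 differences of 1.77 to 2.10, and the edgeR adjusted p ran up to 0.115 over the alternatives. The size also rested on single Vector libraries, with a log2 difference of 2.89 without the second (edgeR adjusted p = 0.00746) and 1.36 without the first (edgeR adjusted p = 0.0491). Its partner HLA-DMB had 5, 6 and 3 counts in LINC00665 libraries, against 10, 33 and 9 counts in Vector libraries, a depth-scaled ratio of 0.239 (95% interval 0.122 to 0.438) that was 0.451 without the second Vector library, which held the 33 counts. The chains of HLA-DM thus had opposite signs, and HLA-DMB was not tested after the filter (edgeR adjusted p = 0.0450 with no filter). Both overlap AL645941.2 in GENCODE v29, and HLA-DMA also overlaps BRD2 on the other strand. Their expected counts were whole in all 6 libraries. Without knowing whether the counting used strand, reads of BRD2 cannot be told apart from those of HLA-DMA. HLA-DOB, the beta chain of the HLA-DM inhibitor HLA-DO, had 11.8, 6.85 and 11.9 expected counts in LINC00665 libraries, against 3.06, 2 and 7 in Vector libraries, and was not tested; its depth-scaled ratio of 2.25 (95% interval 1.15 to 4.90) was 3.60 without the third Vector library. HLA-DOA had 1 count in 1 Vector library.

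Summed over the 12 class I genes, the level was 2084, 2481 and 1738 CPM in LINC00665 libraries, against 983, 897 and 1070 CPM in Vector libraries. Much of that was B2M, which made up 55.2% ± 2.72 of the sum in LINC00665 libraries and 25.4% ± 2.005 in Vector libraries (SD, n = 3 each). Without B2M the sum was 935 ± 122 CPM in LINC00665 libraries and 734 ± 69.3 CPM in Vector libraries, with overlapping groups. On FPKM the sum without B2M did not overlap, with 464, 499 and 373 in LINC00665 libraries, against 270, 266 and 301 in Vector libraries. The 5 heavy chains alone summed to 610, 668 and 494 CPM in LINC00665 libraries, against 263, 260 and 220 CPM in Vector libraries. TAPBP, also in the class I sum, went the other way, with 71.0 ± 10.7 CPM in LINC00665 libraries and 283 ± 38.8 CPM in Vector libraries. The 12 class II genes summed to 122, 141 and 90.3 CPM in LINC00665 libraries, against 1.15, 3.93 and 2.25 CPM in Vector libraries. CD74 was 97.6% ± 0.275 of that sum in LINC00665 libraries and 9.69% ± 6.79 in Vector libraries. Without CD74 the class II sum was 2.84 ± 0.574 CPM in LINC00665 libraries and 2.26 ± 1.41 CPM in Vector libraries, and these groups overlapped. As a share of both classes, class II made up 5.29% ± 0.309 in LINC00665 libraries and 0.254% ± 0.164 in Vector libraries. CPM sums weight long genes more, and the class I sum on FPKM was 1738 ± 353 FPKM in LINC00665 libraries and 561 ± 43.4 FPKM in Vector libraries.

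**Figure D4:**
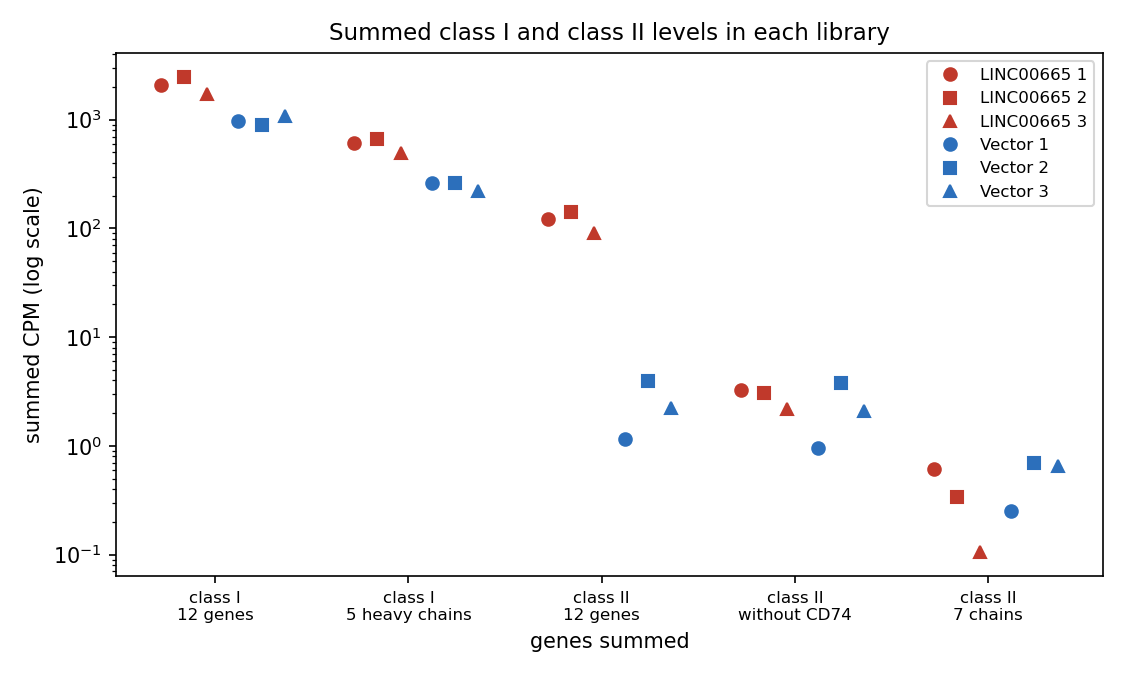
Summed CPM on a log scale of class I and class II genes in each library, with LINC00665 libraries in red left of Vector libraries in blue. The 12 class II genes differ widely between the groups, but without CD74 the groups overlap at 2.84 ± 0.574 CPM and 2.26 ± 1.41 CPM (mean ± SD, n = 3 each).

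A list of 17 leukocyte and antigen-presenting cell markers, genes of cells that normally make class II molecules, summed to 85.1 to 117 CPM in LINC00665 libraries and to 31.5 to 63.2 CPM in Vector libraries. Of 4 tested genes, CD68 had 23.04 ± 5.42 CPM in LINC00665 libraries and 14.5 ± 3.80 CPM in Vector libraries (SD, n = 3 each), and CD83 had 67.2 ± 12.3 CPM in LINC00665 libraries and 28.8 ± 13.7 CPM in Vector libraries. Both were higher (edgeR adjusted p = 0.0203 and 0.00526). The monocyte marker CD14, with 4.89 ± 0.665 CPM in LINC00665 libraries and 0.298 ± 0.357 CPM in Vector libraries, and CSF1R, with 1.04 ± 0.148 CPM in LINC00665 libraries and 0 counts in each Vector library, were also called higher but passed the filter only through the LINC00665 libraries. PTPRC, the pan-leukocyte marker, and ITGAX, LYZ, AIF1, TYROBP and MS4A1 were at 0 in all 3 LINC00665 libraries. In all 3 Vector libraries CSF1R, ITGAX, CD86, LYZ, AIF1, TYROBP, MS4A1 and CD3E were at 0. The part of such cells in the CD74 difference was not tested.

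Of the 5 regulators, 1 was called. CIITA, the class II transactivator, had 3.34, 3.20 and 5.03 CPM in LINC00665 libraries, against 3.42, 2.91 and 3.19 CPM in Vector libraries. These groups overlapped, and the log2 difference of 0.44 (0.26) was not called (edgeR adjusted p = 0.165). On FPKM they did not overlap, with 1.18, 0.57 and 0.68 in LINC00665 libraries, against 0.31, 0.40 and 0.51 in Vector libraries. There limma-trend on log2(FPKM + 0.1) called CIITA at 0.81, with an adjusted p of 0.0461 in a range of 0.0461 to 0.573. CIITA overlaps DEXI in GENCODE v29 and has fractional expected counts in all 6 libraries, so its values are uncertain to that extent. NLRC5, the class I transactivator, had 10.2, 7.81 and 9.47 CPM in LINC00665 libraries, against 6.49, 11.2 and 2.36 CPM in Vector libraries. Its Vector values enclosed the others, and the difference of 0.61 (0.46) was not called (edgeR adjusted p = 0.277). Without the second Vector library it was called, at 1.21 with an edgeR adjusted p of 0.0232, in a range of 0.0232 to 0.519 over the alternatives.

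The RFX complex, which binds the X1 box, has 3 subunits, of which RFXANK was called. RFXANK had 44.0, 47.5 and 45.8 CPM in LINC00665 libraries, against 37.6, 43.7 and 34.2 CPM in Vector libraries. These groups lay just apart, and the log2 difference of 0.41 (0.15) was called by a small margin (edgeR adjusted p = 0.0441), a call kept under 5 of 15 alternatives with adjusted p from 0.0107 to 0.173. RFX5 had 67.9, 59.0 and 67.6 CPM in LINC00665 libraries, against 79.0, 83.5 and 91.2 CPM in Vector libraries. Every LINC00665 value was the lower one, yet the difference of -0.22 (0.13) was not called (edgeR adjusted p = 0.179), and with scaling by total counts it was, at -0.38 with an adjusted p of 0.0375 in a range of 0.0375 to 0.338. RFXAP had 4.88, 4.68 and 4.97 CPM in LINC00665 libraries, against 5.49, 1.79 and 7.68 CPM in Vector libraries, a wide spread around a difference of 0.12 (0.44) that was not called (edgeR adjusted p = 0.823).

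Other genes of the pathway were read from 8 lists, with log2 differences in parentheses or after "by" and means ± SD over 3 libraries. Of 12 genes of the proteasome and of class I folding, all tested, 5 were higher, 2 were lower and 5 were not called, with a median log2 difference of 0.28. The shares over all genes tested were 63.5% called, 34.2% higher and 29.3% lower, and counts of the lists below stand against these. The catalytic immunoproteasome subunits PSMB8 and PSMB9 were both higher, PSMB8 with 52.3 ± 7.16 CPM in LINC00665 libraries and 8.51 ± 3.10 CPM in Vector libraries (2.78), and PSMB9 with 22.4 ± 3.46 CPM in LINC00665 libraries and 3.03 ± 1.77 CPM in Vector libraries (3.05). The other inducible catalytic subunit, PSMB10, had 14.2 ± 2.56 CPM in LINC00665 libraries and 17.03 ± 2.80 CPM in Vector libraries and was not called. PSMB10 falls outside the naming rule and was picked after its values were seen. PSME1, a subunit of the proteasome activator, was higher by 1.20, and UGGT1, the sensor of misfolded glycoproteins, differed by -0.99, with 73.7 ± 11.997 CPM in LINC00665 libraries and 164 ± 31.2 CPM in Vector libraries. For PSMB8, PSMB9, PSME1 and UGGT1, edgeR's adjusted p was 0.00193 or less.

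Of 13 genes of class II endosomal processing and traffic, all tested, 8 were higher, 3 were lower and 2 were not called, where CTSS and CTSF passed the filter only through the LINC00665 libraries. Over the other 11 genes, 6 were higher and 3 were lower (median 0.63). Among all genes that passed in each group alone, 26.9% were higher and 31.9% were lower. The cathepsin that makes the final cut in CD74, CTSS, had 37.6 ± 9.56 CPM in LINC00665 libraries and 0.199 ± 0.0335 CPM in Vector libraries (7.69). CTSF, another cathepsin able to cleave CD74, had 41.0 ± 10.3 CPM in LINC00665 libraries and 0 counts in each Vector library, which is at least 767-fold higher. The lysosomal aminopeptidase CTSH was higher by 4.64, with 126 ± 16.8 CPM in LINC00665 libraries and 5.66 ± 0.655 CPM in Vector libraries. SPPL2A, the membrane protease that clears the last fragment of CD74, went the other way, with 15.5 ± 1.86 CPM in LINC00665 libraries and 102 ± 11.9 CPM in Vector libraries (-2.56). The edgeR adjusted p of these 4 genes was 8.19e-06 or less.

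Of 16 interferon receptors and signalling genes 7 were higher, 2 were lower and 7 were not called, which at 9 of 16 called is no more than the 63.5% of all genes. IRF8 passed the filter only through the LINC00665 libraries, and the other 15 genes had a median of 0.40. IFNGR1, the ligand-binding chain of the interferon gamma receptor, was higher by 1.08, with 50.9 ± 4.94 CPM in LINC00665 libraries and 26.9 ± 1.52 CPM in Vector libraries. IRF8, an interferon regulatory factor best known from myeloid cells, had 4.19 ± 0.905 CPM in LINC00665 libraries and 0 counts in each Vector library, at least 76.9-fold higher. IRF2 was higher by 1.36 and the feedback inhibitor SOCS3 by 2.22 (2.88 without the third Vector library), and edgeR's adjusted p was 0.00234 or less for these 4 genes.

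Of 12 genes known as interferon gamma targets 10 were tested, and GBP4, GBP5, IDO1 and CXCL10 were among them only because of their level in LINC00665 libraries. Of the 6 that passed the filter in each group alone, 3 were higher, 1 was lower and 2 were not called (median 0.81). The shares over all such genes were 26.9% higher and 31.9% lower. The guanylate-binding protein GBP1 had 27.0 ± 5.02 CPM in LINC00665 libraries and 1.25 ± 0.220 CPM in Vector libraries (4.60). Its relative GBP2 had 46.9 ± 2.30 CPM in LINC00665 libraries and 2.76 ± 1.77 CPM in Vector libraries (4.25, and 4.84 without the second Vector library). GBP4 was higher by 5.79 (6.94 without the third Vector library), and GBP5 had 2 counts over the Vector libraries, a count ratio of 59.9 (95% interval 16.3 to 500), with edgeR adjusted p of 6.69e-05 or less for all 4. GBP3, of the same family, was not called, at 0.67 with an edgeR adjusted p of 0.104, and was picked for mention after its value was seen.

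The list of RFX partners at class II promoters also held EZH2, which is counted here but is not such a partner. Its 10 genes were split, with 4 higher, 4 lower and 2 not called (median 0.45). Over all genes tested 34.2% were higher and 29.3% were lower. The acetyltransferase EP300 had 71.2 ± 13.7 CPM in LINC00665 libraries and 306 ± 49.4 CPM in Vector libraries (-1.95), and the NF-Y subunit NFYC differed by -0.87. SMARCA4, the ATPase of a chromatin remodeller, had 269 ± 9.36 CPM in LINC00665 libraries and 95.4 ± 14.8 CPM in Vector libraries (1.66), and EZH2, the methyltransferase of the Polycomb complex, was higher by 1.26. For these 4 genes the edgeR adjusted p was 0.00174 or less.

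All 9 other ligands of natural killer cell receptors were called, but ULBP2, RAET1E, RAET1G and RAET1L passed the filter only through the LINC00665 libraries. Of the other 5, which passed in each group alone, 4 were higher and 1 was lower (median 1.00). The shares over all such genes were 26.9% higher and 31.9% lower. ULBP1, an NKG2D ligand like MICA and MICB, had 19.1 ± 0.338 CPM in LINC00665 libraries and 5.27 ± 1.47 CPM in Vector libraries (2.02). Its relatives RAET1E, RAET1G and RAET1L were almost absent from Vector libraries. RAET1L had 19.0 ± 1.46 CPM in LINC00665 libraries and 1 count over the Vector libraries (count ratio 1051, 95% interval 188 to 41552). RAET1G had 11.7 ± 1.59 CPM in LINC00665 libraries and 2 counts over the Vector libraries (count ratio 323, 95% interval 89.0 to 2670), and RAET1E was at least 20.5-fold higher. RAET1E, RAET1G, RAET1L and also ULBP2 had fractional expected counts in LINC00665 libraries. Some of their reads were thus shared out between genes, and their single values are uncertain to that extent.

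Among 8 other class I-like genes, CD1A, CD1B, CD1C and CD1E had 0 counts in all libraries, so CD1D was the single CD1 gene with counts. Of the 3 tested, HFE, the regulator of iron uptake, had 4.51 ± 1.13 CPM in LINC00665 libraries and 41.9 ± 2.34 CPM in Vector libraries (-3.05). PROCR, the receptor of protein C, differed by -1.47, and FCGRT, the heavy chain of the neonatal Fc receptor, was higher by 1.04, with edgeR adjusted p of 0.00582 or less for the 3 genes. Of 7 co-stimulatory surface molecules, 5 were tested, 2 were lower and 3 were not called (median -0.28), where CD40 passed the filter only through the Vector libraries. CD40 had 2 counts over the LINC00665 libraries and 54.1 ± 11.6 CPM in Vector libraries, a depth-scaled count ratio of 1689, Vector over LINC00665 (95% interval 467 to 13953). The T cell adhesion ligand CD58 differed by -0.62 (edgeR adjusted p = 0.0212), with 5.07 ± 0.142 CPM in LINC00665 libraries and 8.74 ± 1.01 CPM in Vector libraries. ICOSLG and TNFSF9 were not called (edgeR adjusted p = 0.418 and 0.243), and CD80 had 0 counts throughout.

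**Figure D5:**
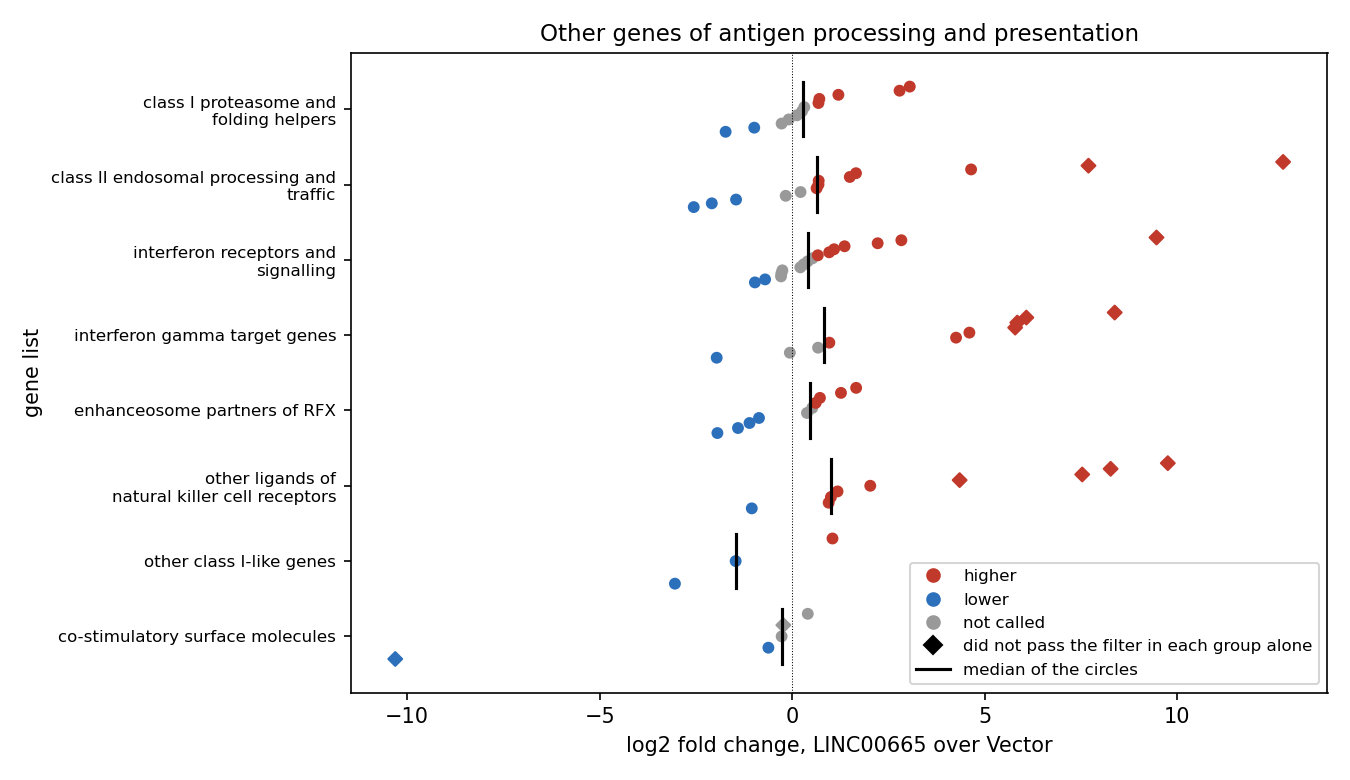
Fitted log2 difference, LINC00665 over Vector, of each tested gene of 8 lists, 1 list per row, with diamonds for genes that did not pass the filter in each group alone and a black bar at the median of the others; red is higher, blue lower and grey not called (edgeR, adjusted p under 0.05). The diamonds include the points farthest from 0, which have counts near 0 in 1 group and depend on the prior count, and the bar of the interferon gamma targets stands at 0.81.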

How the data were processed

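The authors deposited 1 table with an expected count and an FPKM value for each gene in each library, per the file headers; the FPKM were scaled for gene length and library size. The submitters' processing notes name HISAT2 2.0.4 and hg38, with no role stated. Neither the counting tool nor the annotation nor the strand setting is given there or in the labels.

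Expected counts were rounded and tested with edgeR 4.0.16 (R 4.3.3) by the quasi-likelihood test, after filterByExpr and trimmed-mean scaling, with no covariate. P-values were Benjamini-Hochberg adjusted over 13552 genes. Standard errors were derived from the log2 difference and its F statistic. CPM used total expected counts. Depth was 17289788 to 22725687 counts per library. Library pairs of a group differed by more than sampling noise (chi-square per degree of freedom 10.2 to 121). Gene positions came from GENCODE v29 and promoters from RefSeq (GRCh38.p14).

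The members and lists were chosen with earlier results of these data known. All 33 members were named, and from each of 8 lists the 4 tested genes with the smallest p. Some genes of the lists are not reported here. Alternatives were DESeq2 1.42.0, limma-voom and limma-trend (limma 3.58.1; pseudocounts 1 and 0.1 on FPKM), other scalings and filters, the replicate number as a block, and leaving out each library. The edgeR step was tested on simulated counts. Figures were drawn with matplotlib 3.10.9.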

Additional observations from a re-analysis of the deposited data

How the results depend on the processing

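Under 15 alternatives the 22 tested members gave 325 fitted values, none of the opposite sign to a call; 297 kept their side of the threshold, 20 lost a call and 8 gained one, and the cause was not tested unless stated. HLA-B, HLA-C, HLA-F, B2M, TAP1, ERAP2 and TAPBP were called under all 15. The number of members called higher, 12, was 8 to 13 with 1 library left out. The number called lower, 1, was 2 on log2(FPKM + 1) and 2 on log2(FPKM + 0.1), 2 with scaling by total counts (RFX5 added in each of these), 3 with no filter, where HLA-DPA1 and HLA-DMB were tested, and 1 to 3 with 1 library left out (without the third LINC00665 library HLA-DPA1 was added, and without the third Vector library HLA-DMB and MICA). The number of class II members called higher, 2, was 0 where a mean of 1 CPM in both groups was required, since CD74 and HLA-DMA then were not tested, and 1 to 2 with 1 library left out. The log2 ratio of the summed class I level, 1.10 on CPM, was 1.63 on FPKM. CD58 lost its call without LINC00665 replicate 1 or 3 or Vector replicate 1. Depth limits the class II chains, with at most 12 counts per library each.

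The labels do not say whether the replicate numbers pair the samples. Deviations of same-numbered libraries from their group mean correlated weakly, at 0.15, -0.13 and -0.15 across genes. With 3 libraries per group such correlations cannot decide whether the numbers mark shared batches. With the replicate number as a block, 10 members were called higher, 1 lower and 1 class II member higher; HLA-DMA, RFXANK and CD58 lost their calls.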

Other observations

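The members that lie on chromosome 6 number 21, between positions 29722775 and 33314387 (GRCh38), and 12 lie elsewhere. The 91 tested genes of that interval that are not members had a median log2 difference of -0.34, with 27.5% called higher and 36.3% called lower in LINC00665 libraries (edgeR's quasi-likelihood test).

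Within the LINC00665 group several members had the same order of libraries, a pattern chosen after the values were seen and not tested. Replicate 2 was highest and replicate 3 lowest for 10 of 22 tested members (HLA-B, HLA-C, HLA-F, HLA-DMA, B2M, TAP1, TAPBP, ERAP1, CD74 and CD1D) and for 13.5% of all genes tested. With replicate 2 at least 1.5 times replicate 3, this held for 6 of 22 members (HLA-B, HLA-F, HLA-DMA, B2M, CD74 and CD1D) and for 2.52% of all genes tested.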
